A study of Mus musculus with 32 samples.

Results

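Solute carriers are the largest group of membrane transport proteins of mammals, and the genes here were those on the array whose symbol starts with Slc and a digit, leaving out Slc4a1, the anion exchanger of red blood cells. The rule gave 190 genes, measured by 253 probes, out of 9030 named genes and 12771 named probes. Of the 190 genes, 49 had more than 1 probe. Slc4a1ap, Slc9a3r1 and Slc9a3r2 met the rule by name but code for an adaptor and for scaffold proteins rather than for carriers, and they were kept apart in the counts by class.

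The study hybridised total RNA of the sighted C3H mouse line, named seh in the series, against control C3H RNA on 2-colour cDNA arrays of 20794 probes. The labels give the control animals as male C3H.pde6b-, the strain whose defect in the rod phosphodiesterase gene causes early loss of rods. The series describes 6 male animals of the sighted line; their ages, and which array came from which animal, were not given in the sources used here. Each array set a sample of eye, brain or heart against a reference pooled from 6 control males. The eye pool came from other mice than the pool that served both brain and heart, and a reference pooled once carries no spread between control animals. There were 12 arrays of eye, 12 of brain and 8 of heart, and consecutive arrays with exchanged dyes were averaged to 6, 6 and 4 replicates. As the arrays were not tied to animals, each p-value measures only the spread between these replicates, which may be technical. A positive log2 ratio means more RNA in the sighted sample than in the control pool; this direction is likely rather than stated, as it rests on rod genes being higher in sighted eye. A ratio gives no level of a gene in an organ, so the labelled organs could not be checked by the presence of their markers. Heart array 7 lacked 61.6% of its values; the other heart arrays lacked up to 12.0%, the eye arrays 1.62% to 5.10% and the brain arrays 1.01% to 5.05%, so heart values rest on fewer measurements.

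Each Slc family carries its own kinds of substrate across a membrane: sugars, amino acids, transmitters, metals, nucleotides or organic ions, at the cell surface or in mitochondria, lysosomes, the endoplasmic reticulum and the Golgi. Most work as cotransporters or exchangers driven by gradients of sodium, protons or other solutes and not by ATP directly. In the eye such carriers feed the retina with glucose and lactate, take up glutamate at synapses, move glutamine between glia and neurons, and keep the ion balance of photoreceptors, lens and cornea.

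Of the 190 genes, 183 were tested in eye, 183 in brain and 142 in heart, where 93 had all 4 replicates. The 142 genes tested in heart were tested in all 3 organs. Slc17a7, Slc22a7, Slc37a4, Slc4a9, Slc51b and Slc66a1 had too few values in every organ, and Slc30a9 had too few in eye. A list of 13 carriers known from photoreceptors, retinal glia and pigment epithelium had 6 genes on the array and 5 among the tested ones. Slc24a1, the sodium, calcium and potassium exchanger of rod outer segments, had no probe under that name, and neither did Slc24a2, Slc1a7, Slc7a14, Slc4a7, Slc2a1 or Slc40a1.

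The window before the start is shown for 5 genes that changed in eye, 4 that hold a searched motif and Slc16a11, which holds none. RefSeq promoter windows (GRCm38.p6, the 250 bases before the start) matched 151 of the 190 genes by symbol, and Slc16a6 was not among them. The motifs were TAATCC, the core that the photoreceptor factor CRX binds, GGGCGG, the GC box, and TATAAA, the TATA box, each searched on both strands, with none overlapping another in the windows shown. Capitals mark a match, and a match on the opposite strand shows as GGATTA or CCGCCC. The 151 genes had 205 windows, so a gene can have more than 1. For Slc22a6, Slc35e3 and Slc29a1 only a window that holds a TAATCC was picked for display. Slc25a33 (chr4:149774268-149774517, minus strand) and Slc22a6 (chr19:8617746-8617995, plus strand) were higher in sighted eye, and so was Slc35e3 (chr10:117746359-117746608, minus strand). Slc16a11 (chr11:70213660-70213909, plus strand) and Slc29a1 (chr17:45599619-45599868, minus strand) were lower.
Slc25a33: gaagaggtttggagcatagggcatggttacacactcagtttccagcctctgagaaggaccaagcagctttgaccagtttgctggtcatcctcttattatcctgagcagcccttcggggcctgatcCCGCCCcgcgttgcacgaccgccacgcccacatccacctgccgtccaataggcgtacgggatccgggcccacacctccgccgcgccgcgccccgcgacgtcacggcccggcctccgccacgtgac
Slc22a6: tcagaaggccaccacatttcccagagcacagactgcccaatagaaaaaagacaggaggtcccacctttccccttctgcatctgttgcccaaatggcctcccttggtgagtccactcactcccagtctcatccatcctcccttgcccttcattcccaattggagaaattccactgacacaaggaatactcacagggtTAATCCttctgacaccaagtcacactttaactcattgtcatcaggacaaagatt
Slc35e3: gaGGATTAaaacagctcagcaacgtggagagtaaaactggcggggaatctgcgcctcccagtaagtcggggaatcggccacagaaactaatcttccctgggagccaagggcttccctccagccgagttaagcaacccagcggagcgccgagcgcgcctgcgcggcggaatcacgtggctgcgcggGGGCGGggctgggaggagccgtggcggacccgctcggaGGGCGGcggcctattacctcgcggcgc
Slc16a11: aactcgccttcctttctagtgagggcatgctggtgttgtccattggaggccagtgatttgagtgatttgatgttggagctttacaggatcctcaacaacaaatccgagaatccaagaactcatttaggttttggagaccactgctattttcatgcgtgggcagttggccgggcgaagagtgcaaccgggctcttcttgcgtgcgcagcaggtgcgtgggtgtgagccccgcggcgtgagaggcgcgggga
Slc29a1: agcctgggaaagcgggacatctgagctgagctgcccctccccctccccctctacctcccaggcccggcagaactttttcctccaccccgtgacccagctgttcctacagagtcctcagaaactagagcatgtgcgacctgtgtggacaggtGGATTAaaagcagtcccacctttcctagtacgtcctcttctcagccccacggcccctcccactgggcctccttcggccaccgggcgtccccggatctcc
The window of Slc25a33 holds a GC box at -125 from the start on the opposite strand, that of Slc22a6 a TAATCC at -54, and that of Slc29a1 a TAATCC at -99 on the opposite strand. Slc35e3 holds a TAATCC on the opposite strand and GC boxes. Over all 27025 genes of the promoter table, 7.21% had a TAATCC, against 2 of 19 genes higher in eye, 1 of 24 lower ones and 9 of 103 that did not pass the test. A GC box stood in 35.4% of all genes, in 13 of 19 higher, 19 of 24 lower and 59 of 103 uncalled carriers. A TATA box stood in 14.3% of all genes, in 0 of 19 higher, 3 of 24 lower and 8 of 103 uncalled carriers. A gene counted if any of its windows held the motif. All genes together had 32851 windows, and the 151 carriers had 205. The 27025 genes go beyond the 9030 named genes of the array, so they are no matched background. These counts are a description, and letters in a window are neither a bound site nor a cause.

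In eye, 57 of 183 Slc genes changed (limma, Benjamini-Hochberg adjusted p under 0.05 over all genes), or 31.1%, beside 26.8% of all 15874 genes tested. There were 25 higher genes, 13.7% beside 15.9% of all genes, and 32 lower ones, 17.5% beside 11.0%. The median log2 ratio was -0.01 over the carriers and 0.03 over all genes. Without the 3 genes that are no carriers the count is 56 of 180, with 24 higher and 32 lower. Most changes were small: 33 of the 57 were below 0.5 in log2 size, 4 rose by at least 1 and 2 fell by at least 1. The shares by size among all called genes are not given here, so these sizes are not read as particular to carriers. Of the 57, 53 had 1 sign in every replicate, and Slc13a4, Slc16a3, Slc19a1 and Slc44a4 did not. Without adjustment 77 carriers, or 42.1%, had a p under 0.05, beside 37.9% of all genes. Eye is a mix of many cell types, and fewer cells of a type cannot be told apart from less RNA per cell in these whole organs.

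Slc16a6, a carrier of the monocarboxylate family known for moving ketone bodies out of liver cells, had eye replicates of 1.64 at the lowest, 2.01 at the median and 2.10 at the highest. All 6 lay far above 0, at a mean log2 ratio of 1.94 ± 0.17 (SD, n = 6), a 3.83-fold rise with adjusted p = 9.32e-07. Slc25a33, which brings pyrimidine nucleotides into mitochondria, had replicates from 1.42 through a median of 1.60 to 1.88. They lay within a narrow band, with a mean of 1.62 ± 0.15 (SD, n = 6), 3.07-fold and adjusted p = 1.78e-06. Slc38a3, a sodium-coupled glutamine carrier of glia, liver and kidney, had replicates of 0.80 at the lowest, 1.09 at the median and 1.20 at the highest. None came near 0, and the mean was 1.05 ± 0.13 (SD, n = 6), 2.07-fold with adjusted p = 1.65e-05. Slc17a1, a phosphate and urate carrier best known from kidney, had replicates from 0.74 through 1.00 to 1.22, all on the high side. Its mean was 1.01 ± 0.18 (SD, n = 6), 2.02-fold with adjusted p = 4.82e-05.

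**Figure D1:**
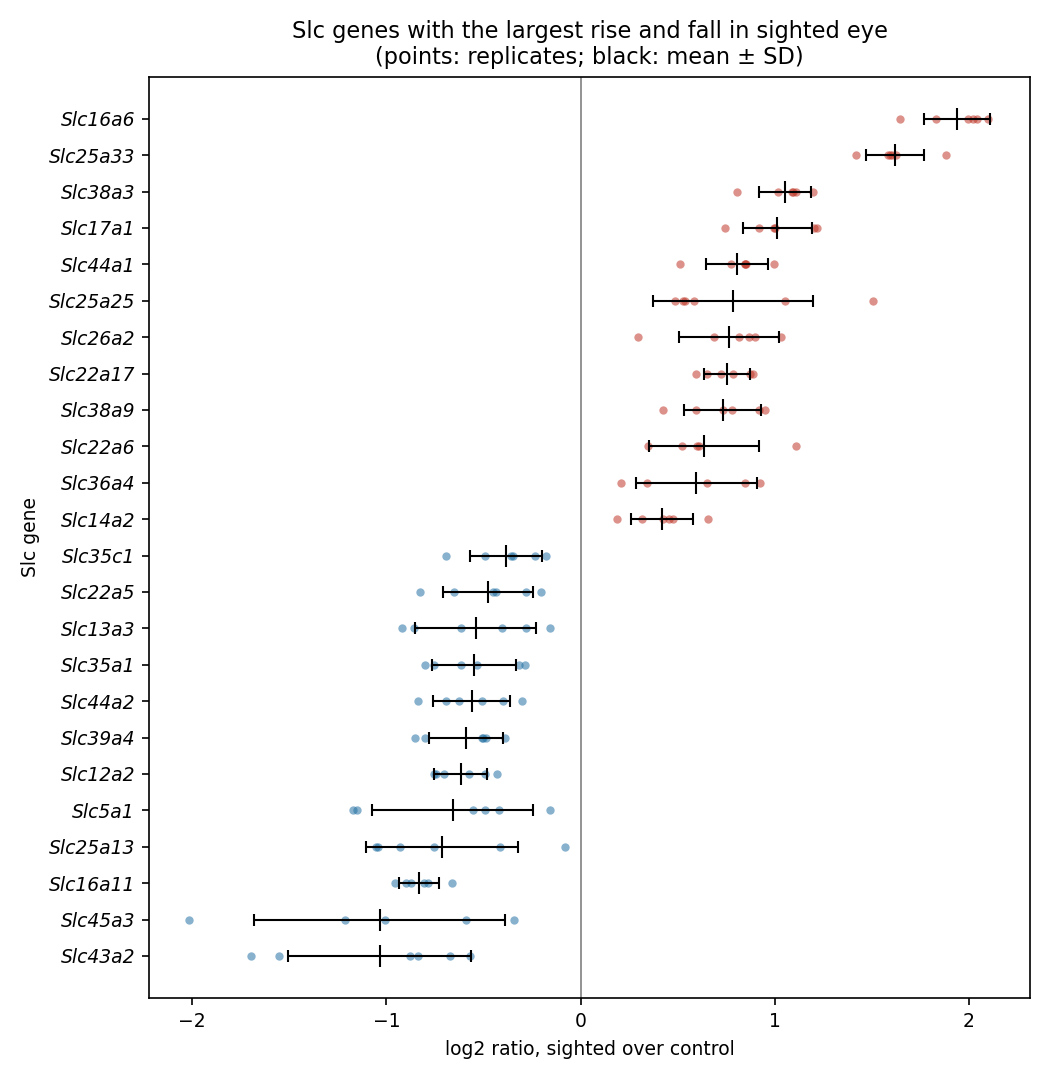
Log2 ratio of sighted over control eye RNA for the 12 carriers with the largest rise and the 12 with the largest fall among those past the threshold with 1 sign in every replicate; coloured points are the 5 or 6 replicates of a gene, and the black mark with its bar is the mean ± SD. Slc16a6 and Slc25a33 stand apart at the top with means of 1.94 and 1.62, and Slc45a3 and Slc43a2 have the widest spread among the falls.

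The next group of rising genes stood below 1 in log2 ratio. Slc44a1, a choline carrier, rose by 0.81 ± 0.16 (SD, n = 6, adjusted p = 0.000127), with replicates between 0.51 and 1.00. Slc25a25, a calcium-regulated carrier of ATP in mitochondria, rose by 0.78 ± 0.41 (SD, n = 6, adjusted p = 0.00425); its median of 0.56 was well below its highest replicate of 1.51. Slc26a2, the sulfate carrier needed for cartilage matrix, rose by 0.76 ± 0.26 (SD, n = 6, adjusted p = 0.000729). Slc22a17, a receptor for the iron-binding protein lipocalin 2, rose by 0.75 ± 0.12 (SD, n = 6, adjusted p = 9.04e-05). Slc38a9, the lysosomal arginine sensor of the mTORC1 pathway, rose by 0.73 ± 0.20 (SD, n = 6, adjusted p = 0.00038). In each of these, every replicate was above 0. The remaining large rises were Slc22a6, an organic anion carrier of kidney, at 0.64 ± 0.28 (SD, n = 5, adjusted p = 0.00522), Slc36a4, an amino acid carrier, at 1.51-fold (n = 5, adjusted p = 0.00953), and Slc14a2, a urea carrier, at 0.42 ± 0.16 (SD, n = 6, adjusted p = 0.00336).

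The largest falls were less even. Slc43a2, a carrier of branched-chain amino acids, had replicates of -1.70 at the lowest, -0.86 at the median and -0.57 at the highest. Replicates 1 and 2 were far lower than the other 4, at a mean of -1.04 ± 0.47 (SD, n = 6), 2.05-fold lower with adjusted p = 0.00195. Slc45a3, a member of the sugar carrier family 45 known from prostate, was at -2.01, -1.21, -1.01, -0.59 and -0.34 in its 5 measured replicates. The spread was wide, but none was above 0, and the mean was -1.03 ± 0.65 (SD, n = 5, adjusted p = 0.013). Slc16a11, a monocarboxylate carrier known for its link to lipid metabolism in liver, had replicates from -0.96 through -0.84 to -0.66. These 6 values lay close together at -0.83 ± 0.10 (SD, n = 6), 1.78-fold lower with adjusted p = 3.76e-05. Slc12a2, the sodium, potassium and chloride cotransporter that drives fluid secretion, had replicates from -0.76 through -0.64 to -0.43. It was thus low in every replicate, at -0.62 ± 0.14 (SD, n = 6), 1.53-fold with adjusted p = 0.000339.

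Slc25a13, the mitochondrial aspartate and glutamate carrier citrin, fell by 0.71 on the log2 scale with replicates from -1.05 to -0.08 (SD 0.39, n = 6, adjusted p = 0.00537). Slc5a1, the intestinal sodium and glucose cotransporter, fell by 0.66 with replicates from -1.17 to -0.16 (SD 0.41, n = 6, adjusted p = 0.00982). Slc39a4, the zinc importer of gut, fell by 0.59 (SD 0.19, n = 6, adjusted p = 0.00101). Their replicates all lay below 0, as did those of Slc44a2, a choline carrier, at -0.56 ± 0.20, and Slc35a1, the carrier of CMP-sialic acid into the Golgi, at -0.55 ± 0.22 (SD, n = 6 each). Slc13a3, a sodium-coupled dicarboxylate carrier, stood at -0.54 ± 0.31, Slc22a5, the carnitine carrier, at -0.47 ± 0.23, and Slc35c1, which carries GDP-fucose into the Golgi, at -0.38 ± 0.19 (SD, n = 6 each). These 5 genes had adjusted p-values from 0.0014 to 0.008 and were low in 6 of 6 replicates.

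The classes are described by their counts, to be read beside the 15.9% of all genes that were higher and the 11.0% that were lower; no difference between classes was tested. Among 22 mitochondrial carriers of family 25, 6 rose, 5 fell and 11 did not pass the test, with a median of 0.05. Beside Slc25a33 and Slc25a25 the rising ones were Slc25a28, the iron carrier mitoferrin of non-erythroid cells, at 0.40, Slc25a14, an uncoupling protein of brain, at 0.38, Slc25a46, a protein of the outer membrane that acts in mitochondrial fusion and fission, at 0.35, and Slc25a35 at 0.26. Beside Slc25a13 the falling ones were Slc25a1, the citrate carrier that feeds fatty acid synthesis, at -0.38, Slc25a39, the carrier of glutathione, at -0.35, Slc25a45 at -0.31 and Slc25a48 at -0.23. The calls of 3 of these did not hold with 1 replicate left out: that of Slc25a35 was lost without replicate 3, 4, 5 or 6 (adjusted p up to 0.0651), that of Slc25a45 without 1, 3, 4 or 5 (up to 0.0805) and that of Slc25a48 without 1, 2, 4, 5 or 6 (up to 0.128). Slc25a5, an ADP and ATP exchanger, at 0.02, and Slc25a3, the phosphate carrier, at -0.05, are 2 abundant members of the class that did not pass.

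Among 6 tested monocarboxylate carriers, Slc16a6 and Slc16a3 rose, Slc16a11 fell and 3 did not pass. Slc16a3, the lactate exporter of glycolytic cells, was at 0.43 ± 0.36 (SD, n = 6) and higher in 5 of 6 replicates; its call was lost without replicate 1, 3, 4, 5 or 6 (adjusted p between 0.063 and 0.106). Slc16a1, the widespread lactate and pyruvate carrier, stood at 0.19 ± 0.39, with replicates from -0.29 to 0.76 (adjusted p = 0.342). Slc16a8, the lactate carrier of pigment epithelium, stood at 0.01 ± 0.21, with 5 of 6 replicates above 0 and 1 at -0.41 (adjusted p = 0.955).

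Amino acid carriers fall into several families. Of 14 members of families 36, 38 and 43, 4 rose and 1 fell: Slc38a3, Slc38a9, Slc36a4 and Slc36a1, a proton-coupled amino acid carrier of lysosomes, at 0.21, against Slc43a2. Slc36a1 passed by little, and its call was lost without any of replicates 1 to 5 (adjusted p up to 0.0863). Of 6 members of family 1, the glutamate and neutral amino acid carriers, only Slc1a3 passed. Slc1a2 of this family, at a mean of 0.11, did not pass, but its probes disagreed. They stood at 0.56 ± 0.13, 0.09 ± 0.15 and -0.32 ± 0.16 (SD, n = 6 each). Slc1a3, the glutamate carrier of Mueller glia and astrocytes, had replicates from -0.64 through a median of -0.30 to -0.05, all below 0 but close to it at one end. Its mean was -0.34 ± 0.21 (SD, n = 6, adjusted p = 0.0187), and it missed the threshold without replicate 3 (0.0506) or 4 (0.0563). Of 9 exchangers and their heavy chains, Slc7a5, the large neutral amino acid exchanger, alone passed, at -0.22 ± 0.16 with adjusted p = 0.0491, and that call was lost without each replicate but the third (adjusted p up to 0.137). Slc7a10, Slc7a6 and the heavy chain gene Slc3a2 stood at 0.09, 0.11 and -0.08.

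Of 12 carriers of family 6, which take up transmitters and related molecules with sodium and chloride, 0 rose and 2 fell. Slc6a2, the noradrenaline carrier, was at -0.30 ± 0.12 (SD, n = 6, adjusted p = 0.01) and low in every replicate. Slc6a8, the creatine carrier, was at -0.18, and its call was lost with any single replicate left out (adjusted p between 0.0608 and 0.119). Slc6a6, the taurine carrier, varied widely: its replicates ran from -1.26 through -0.11 to 0.55, and its mean was -0.13 ± 0.64 (SD, n = 6, adjusted p = 0.691). Among 5 tested members of families 17, 18 and 32, which include the vesicular transmitter carriers, only Slc17a1 passed. The vesicular carriers of GABA (Slc32a1) and monoamines (Slc18a2) and the vesicular glutamate carrier Slc17a8 stood at -0.08, 0.16 and -0.10 and did not pass.

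Of 15 sugar carriers 1 was higher, 3 were lower and 11 did not pass, a share of called genes at that of all genes (26.8%). Slc2a12, a glucose carrier, was at 0.29, and the falling genes were Slc45a3, Slc5a1 and Slc5a4b, at -0.30. The neuronal glucose carrier Slc2a3 stood at 0.05 and the insulin-responsive Slc2a4 at -0.29, neither past the threshold. Among 18 carriers of the endoplasmic reticulum and Golgi, which bring nucleotide sugars and sugar phosphates to the sites of glycosylation, 1 rose and 5 fell. Slc35e3, whose window is printed above, was at 0.33, and the falling ones were Slc35a1, Slc35c1, Slc37a1 at -0.33, Slc35f5 at -0.27 and Slc35d2 at -0.24. The calls of Slc35f5 and Slc35d2 were lost without replicate 1, 3 or 5 (adjusted p up to 0.0622 and 0.0812).

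Ion and metal carriers formed small classes, whose counts stand beside 26.8% of all genes and were not tested. Of 15 metal carriers, which move zinc, iron, copper and magnesium, only Slc39a4 passed. The other 14 lay between -0.26 and 0.25. Of 7 cation and chloride cotransporters Slc12a9 rose, to 0.36, and Slc12a2 fell, while Slc12a5, the chloride extruder of neurons, stood at 0.02. Of 4 sodium and calcium exchangers only Slc24a3 passed, at 0.27 ± 0.13 (SD, n = 6, adjusted p = 0.0151); this call was lost without replicate 1 (0.0522) or 5 (0.0514). Of 6 bicarbonate and anion exchangers only Slc26a2 passed. The 3 sodium and proton exchangers did not pass: Slc9a9, an exchanger of endosomes, stood at -0.13 ± 0.15 (SD, n = 6, adjusted p = 0.225), Slc9b1 at -0.02 and Slc9b2 at 0.03.

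Organic ion, bile acid and peptide carriers held 3 rising and 4 falling genes of 15. The rising ones were Slc22a17, Slc22a6 and Slc14a2. The falling ones were Slc22a5, Slc22a21, also a carnitine carrier, at -0.30, Slc14a1, the urea carrier of red blood cells and kidney, at -0.30, and Slc15a2, a peptide cotransporter, at -0.27. The call of Slc22a21 was lost without replicate 3, 4 or 5 (adjusted p up to 0.0687) and that of Slc15a2 without replicate 4 (0.0532). Of 8 phosphate, sulfate and dicarboxylate carriers, Slc20a1, a phosphate carrier of most cells, rose to 0.39 ± 0.12 (SD, n = 6, adjusted p = 0.00233). Slc13a3 and the sulfate carrier Slc13a4, at -0.58, fell, but Slc13a4 did not have 1 sign in every replicate. Of 8 carriers of vitamins, nucleosides and choline 2 rose and 3 fell. Slc44a1 and the folate carrier Slc19a1, at 0.53, were the rises. Slc44a2, Slc44a4, a carrier of thiamine pyrophosphate, at -0.67, and the nucleoside carrier Slc29a1, at -0.24, were the falls. Neither Slc19a1 nor Slc44a4 had 1 sign in every replicate. The calls of Slc44a4 (adjusted p up to 0.108) and Slc29a1 (up to 0.118) were lost in 4 leave-out fits each, without replicate 1, 2, 5 or 6 and without 1, 2, 4 or 5. Among 4 fatty acid carriers Slc27a2 alone passed, at -0.24 ± 0.07 (SD, n = 6, adjusted p = 0.0126). In the last class, of 3 tested genes, the lysosomal carrier Slc49a4 was at -0.23 ± 0.09 (SD, n = 6, adjusted p = 0.021), a call lost without replicate 3, 4 or 5 (up to 0.0708). Of the 3 genes that are no carriers Slc4a1ap rose, at 0.38 ± 0.14 (SD, n = 6, adjusted p = 0.00421).

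**Figure D2:**
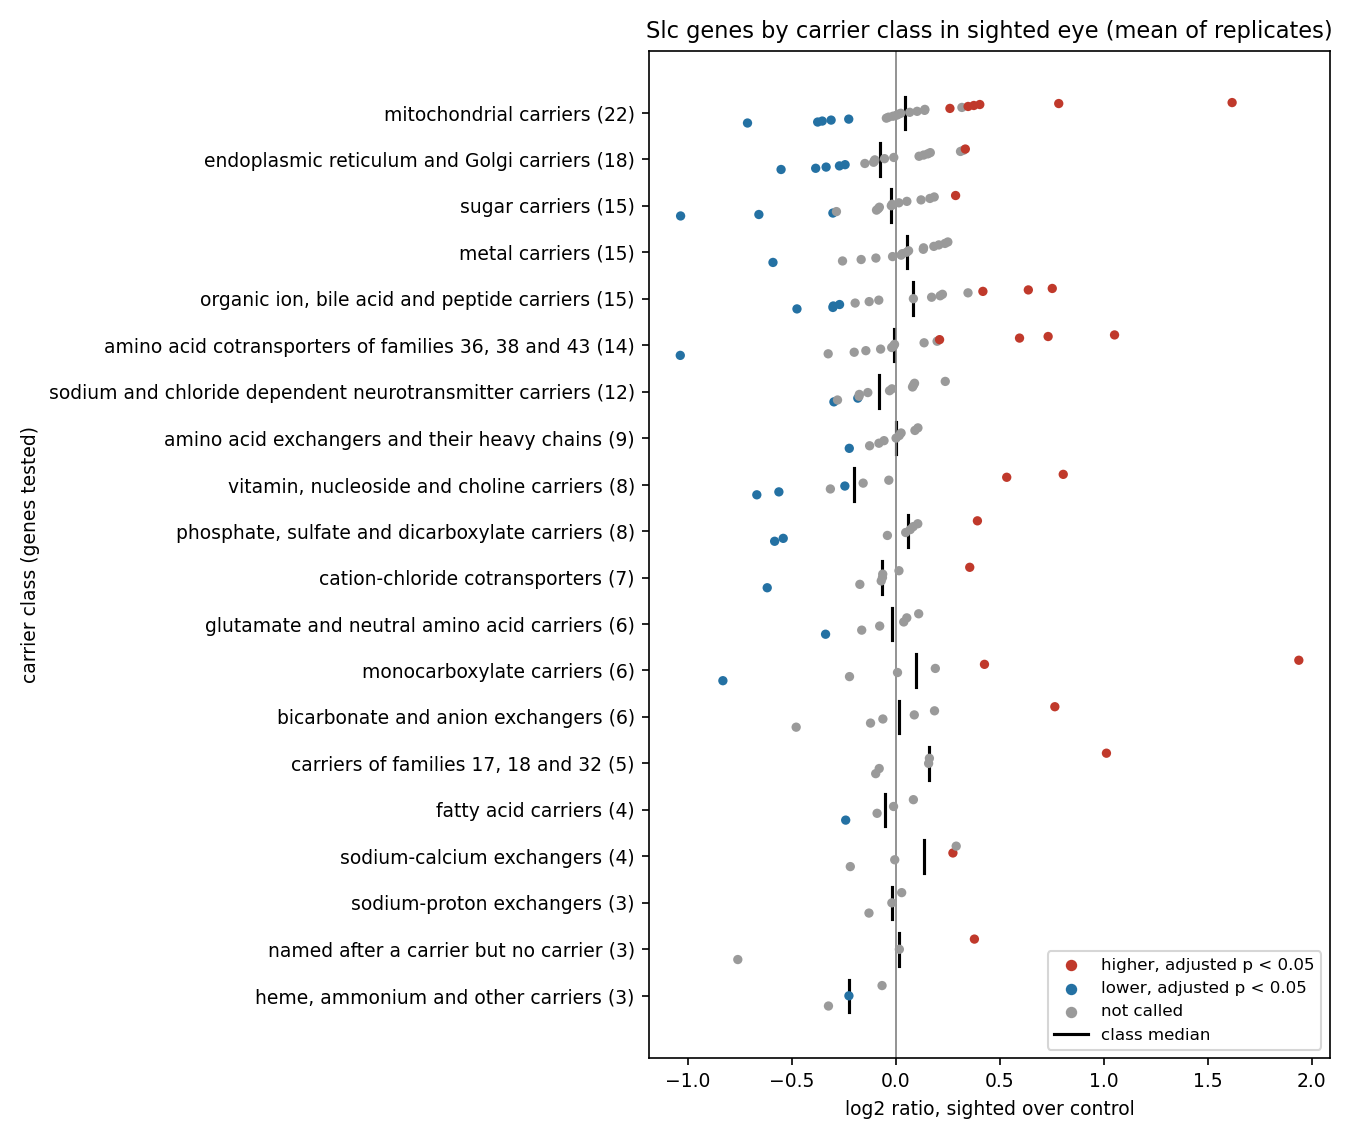
Log2 ratio of sighted over control eye RNA for each of the 183 tested genes, one line per carrier class; red points were called higher, blue ones lower, grey ones did not pass, and the black bar is the class median. The mitochondrial class has called genes on both sides of 0 and spans from -0.71 to 1.62.

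Some genes were measured by probes that disagreed. The probes of Slc16a6 differed in size, at 2.48 ± 0.36 and 1.39 ± 0.25 (SD, n = 6 each), with the same sign. For Slc22a17 the whole rise came from 1 of its probes, at 1.53 ± 0.12, while the other stood at -0.03 ± 0.13. The probes of Slc24a3 stood at 0.85 ± 0.17 and -0.30 ± 0.13 and those of Slc37a1 at -0.87 ± 0.31 and 0.20 ± 0.07 (SD, n = 6 each). Slc14a1 had probes at -0.55 ± 0.16, -0.44 ± 0.18 and 0.08 ± 0.24, and Slc29a1 at -0.42 ± 0.16 and -0.07 ± 0.23 (SD, n = 6 each). For these genes the mean over probes is a value that no single probe showed, and which transcripts the probes read was not analysed here. Not every carrier with disagreeing probes is listed.

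Of the 2 probes of Slc43a2, 1 was at -0.21 ± 0.10 and the other at -1.86 ± 0.90 (SD, n = 6 each). The second probe ran through the replicates at -2.94, -3.00, -1.52, -1.61, -0.88 and -1.21. The alpha globin gene Hba-a1, a red blood cell gene and no carrier, ran at -3.29, -3.27, -1.53, -1.56, -0.91 and -1.21 in the same replicates. The root mean square distance between both profiles was 0.182 in log2 units. It was the only one of 216 carrier probes with all replicates that lay within 0.3 of Hba-a1, as 24 of 17694 probes of the whole array did, and the next carrier probe, of Slc37a1, lay at 1.37. This is a description of how alike the values were; the sequence of the probe was not used here. Without replicates 1 and 2, where Hba-a1 was lowest, the carriers lower in eye were 13 in place of 32 and the higher ones 22 in place of 25. This setting was chosen after seeing the data. It leaves fewer replicates, and leaving out 1 replicate alone already gave as few as 44 called carriers. The share of all genes called in this setting is not given here, and a part of blood in these calls was not tested.

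**Figure D3:**
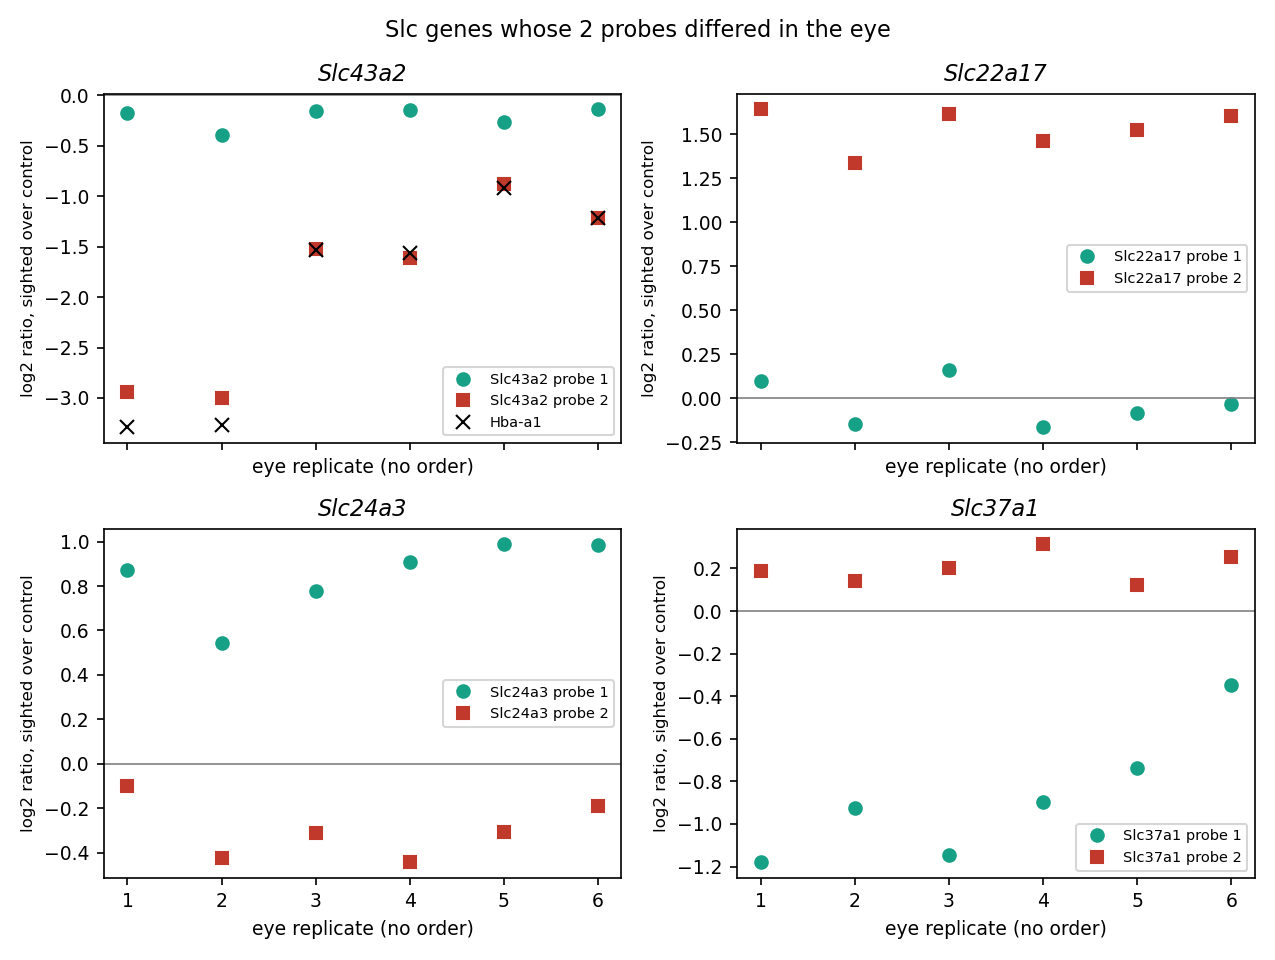
Log2 ratio of sighted over control eye RNA in the 6 replicates for each probe (circles and squares) of Slc43a2, Slc22a17, Slc24a3 and Slc37a1, with Hba-a1 (crosses) beside Slc43a2. One Slc43a2 probe is lowest in replicates 1 and 2 and highest in replicate 5, as Hba-a1 is, while the other has a mean of -0.21.

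Markers of other tissues moved in the same eye arrays. The 4 tested genes of 17 on a rod list were all higher, with a median log2 ratio of 5.23 and replicate medians between 4.89 and 5.44. As the direction of the ratio was read from rod genes, the sign of this list was set beforehand. All 6 tested lens genes of 8 were higher, with replicate medians from 0.01 to 0.99, and replicates 1 and 5 were the lowest. Of 9 tested genes of 10 on the skeletal muscle list, 8 were lower and 1 higher, with replicate medians between -1.18 and -0.49. Of 8 tested cornea and surface epithelium genes of 9, 7 were lower, between -1.51 and -0.73. The fat list (4 tested of 6, 3 lower, -0.76 to -0.24), the immune list (7 of 8, 6 lower, -0.69 to -0.26) and the blood list (2 of 3, both lower, -2.56 to -0.81) moved the same way. Of 6 Mueller and astroglia genes, a list that bears on the glial carriers Slc1a3 and Slc38a3, 2 were lower and 0 higher, with replicate medians from -0.45 to -0.18. Of 5 tested cardiomyocyte genes of 8, 3 were lower (-0.47 to 0.05). Of 3 tested neuron genes of 5, 1 was higher and 1 lower (-0.17 to 0.08). Pigment epithelium (2 tested of 5, 1 higher, -0.66 to 0.46) and choroid plexus (2 tested of 4, 1 lower, -0.47 to -0.07) had few genes. The part of these tissues in the carrier changes was not tested. Without replicates 1 and 5, 16 carriers were higher and 13 lower, again a setting chosen after seeing the data. It too leaves fewer replicates, and the share of all genes called in it is not given here.

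Dye orientation bore on the eye calls. With the 6 arrays that carried sighted RNA in Cy5 alone, 66 carriers were higher and 9 lower. With the 6 that carried it in Cy3 alone, 10 were higher and 49 lower. The share of all genes called in each orientation is not given here, so these counts are not read as particular to carriers. Eye array medians lay between -0.055 and 0.539 before the sign was turned, and a median above 0 shifts all genes up in Cy5 and down in Cy3. How far this shift bears on the counts was not tested. The mean of both orientations, used above, cancels an effect that a dye has on a probe. Of the 57 called carriers, 11 differed in sign between the means of the orientations. Called in both, with the same sign of both means, were 16, with 9 rises and 7 falls. The rises were Slc16a6, Slc25a33, Slc38a3, Slc17a1, Slc44a1, Slc25a25, Slc26a2, Slc38a9 and Slc16a3. The falls were Slc43a2, Slc16a11, Slc12a2, Slc39a4, Slc44a2, Slc35a1 and Slc13a4. Among these 16, the call of Slc16a3 was lost in 5 leave-out fits. The fall of Slc43a2 came mostly from the probe that ran close to Hba-a1 (-1.86, against -0.21 for its other probe). Slc16a6 read 2.11 with sighted RNA in Cy5 and 1.77 in Cy3, and Slc38a3 read 1.48 and 0.63. Slc22a6, by contrast, read 0.91 and -0.06, so its rise rests on 1 orientation. Slc7a5 read 0.15 and -0.60, Slc27a2 0.01 and -0.49, and Slc24a3 0.56 and -0.01.

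The comparison list of 55 other transport genes, namely ABC transporters, aquaporins, the Slco and Mfsd families, ion pumps and the partner proteins of monocarboxylate carriers, had 54 genes tested in eye. Of these 6 were higher and 9 lower, to be read beside 15.9% and 11.0% of all genes, with a median of -0.02. Atp1b2, a subunit of the sodium pump in glia and photoreceptors, rose to 1.23 ± 0.17 (SD, n = 6), and Slco4a1, an organic anion carrier, to 1.07 ± 0.15. Atp2a1, the calcium pump of fast skeletal muscle, fell to -1.11 ± 0.34, and the water channels Aqp5 and Aqp6 to -1.08 ± 0.47 and -0.81 ± 0.31 (SD, n = 6 each). Emb, a partner that brings monocarboxylate carriers to the cell surface, was at -0.25 ± 0.19 and passed by little (adjusted p = 0.0455). In brain and heart 0 of 55 and 0 of 49 passed in limma. There 1 and 4 had an unadjusted p under 0.05, beside 4.08% and 8.17% of all genes.

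In brain, 0 of 183 carriers passed the limma threshold, as 0.00621% of all 16112 genes did, and 13 had an unadjusted p under 0.05. That is 7.10%, beside 4.08% of all genes. The member median was -0.02. Slc5a1 had brain replicates of -0.13 at the lowest, 0.44 at the median and 0.79 at the highest, a mean of 0.39 ± 0.33 (SD, n = 6, adjusted p = 0.959). This is opposite in sign to its eye value, and 1 of the 6 replicates was below 0. Slc28a2, a nucleoside carrier, ran at 0.67, 0.12, 1.02, 0.35 and 0.13 in 5 brain replicates, all above 0 but of very different size (0.46 ± 0.39, SD, adjusted p = 0.959). Slc35a5 stood at -0.25 ± 0.21, Slc25a46 at 0.17 ± 0.10 and Slc6a11, a GABA carrier of astrocytes, at -0.26 ± 0.23 (SD, n = 6 each, adjusted p = 0.959 for each). With sighted RNA in Cy5 alone 6 carriers passed in brain, and with it in Cy3 alone 17 passed. The share of all genes called in these brain settings is not given here, so both counts are not read as particular to carriers.

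In heart, 0 of 142 carriers passed in limma, beside 0.0% of all 12755 genes, and 7 had an unadjusted p under 0.05, or 4.93% beside 8.17% of all genes. Slc16a8 read -0.40, -0.42, -0.48 and -0.36, the evenest set of values among the carriers named in heart. Its mean was -0.42 ± 0.05 (SD, n = 4, adjusted p = 0.568). Slc25a12, the aspartate and glutamate carrier of heart and brain mitochondria, read 0.30, 0.61, 0.34 and 1.30, all above 0 with the last far higher (0.64 ± 0.46, SD, n = 4, adjusted p = 0.568). Slc11a1, a metal carrier of macrophage phagosomes, read 0.48, 0.66, 0.51 and 2.49, where the last replicate stands alone (1.03 ± 0.97, SD, n = 4, adjusted p = 0.568). The last replicate, which holds the highest value of Slc25a12 and of Slc11a1, includes heart array 7, which lacked 61.6% of its values. Slc6a6, the taurine carrier, read 2.49, 1.13 and 0.37 in its 3 measured replicates, all above 0 but widely apart (1.33 ± 1.07, SD, n = 3, adjusted p = 0.568). Slc17a3, a urate carrier, stood at -0.46 ± 0.24 (SD, n = 4, adjusted p = 0.568).

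The largest eye rises had no counterpart of their size in the other organs. Slc16a6 was at 0.01 ± 0.16 (SD, n = 6) in brain and -0.07 ± 0.09 (SD, n = 4) in heart. Slc25a33 was at -0.18 ± 0.43 in brain and -0.07 ± 0.58 in heart, with n = 3 there, and Slc38a3 at 0.03 ± 0.18 and -0.22 ± 0.64, also with n = 3 in heart. Slc17a1 was at 0.04 ± 0.18 in brain and -0.34 ± 0.16 (n = 3) in heart. The wide spread of Slc25a33 and Slc38a3 in heart leaves a large range for their true value. Among the falls, Slc12a2 was at 0.07 ± 0.09 and Slc43a2 at -0.08 ± 0.23 in brain (SD, n = 6 each).

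Tested as a difference between organs, 36 of 182 carriers differed between eye and brain (limma moderated spread of each organ, adjusted p under 0.05), beside 18.4% of all 15499 genes. In 17 the eye ratio was higher, beside 11.3% of all genes, and in 19 it was lower, beside 7.14%. Without adjustment 64 had a p under 0.05, or 35.2%, beside 30.2% of all genes. Slc16a6 differed by 1.93 ± 0.10 (SE, adjusted p = 8.69e-10), Slc25a33 by 1.80 ± 0.16 (adjusted p = 1.29e-05), Slc38a3 by 1.02 ± 0.10 (adjusted p = 2.12e-06), Slc44a1 by 1.02 ± 0.12 (adjusted p = 2.15e-05) and Slc17a1 by 0.97 ± 0.11 (adjusted p = 7.6e-06). Slc5a1, which fell in eye and had a brain mean of 0.39, differed by -1.05. Slc28a2, which passed in neither organ (-0.31 in eye, 0.46 in brain), differed by -0.77. Slc25a29, a mitochondrial carrier of basic amino acids, and Slc35a5 passed here, at 0.43 and 0.58, without passing in either organ alone. Of 36 calls, 9 were lost in some fit with 1 replicate left out. That of Slc28a2 was lost without eye replicate 2, 4 or 5 or brain replicate 1 (adjusted p up to 0.0558), that of Slc35a5 without eye replicate 1, 2, 3 or 5 or brain replicate 1 or 4 (up to 0.0898), and that of Slc25a29 without eye replicate 1, 3, 5 or 6 or any brain replicate but the sixth (up to 0.11). That of Slc27a2 was lost without eye replicate 1, 2, 4 or 5 or any brain replicate but the sixth (up to 0.103), that of Slc16a11 without any brain replicate but the fifth (up to 0.0613), and that of Slc13a3 without eye replicate 2, 4 or 5 (up to 0.0544). Slc13a4 (up to 0.0784; eye replicates 2 to 5, brain replicate 6), Slc25a14 (up to 0.0682; eye replicate 6, brain replicates 1, 2 and 5) and Slc12a9 (0.0523; eye replicate 5) were the others. In a simulation this difference test called somewhat more unchanged genes than its threshold allows, so values near the threshold are weak.

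Between eye and heart, 6 of 142 carriers differed, beside 4.64% of all 12547 genes: 5 higher, beside 2.61%, and 1 lower, beside 2.02%. Without adjustment 30 had a p under 0.05, or 21.1%, beside 21.9% of all genes. Slc16a6 differed by 2.01 ± 0.15 (SE, adjusted p = 0.000112), Slc25a33 by 1.69 ± 0.27 (adjusted p = 0.0331), Slc17a1 by 1.35 ± 0.18 (adjusted p = 0.0112), Slc26a2 by 1.04 ± 0.20 (adjusted p = 0.0317) and Slc22a17 by 0.81 ± 0.16 (adjusted p = 0.0289). Slc43a2 differed the other way, by -1.01, a call lost without eye replicate 1 or 2 or any heart replicate (adjusted p up to 0.204). Slc16a6 kept its call without each heart replicate in turn. The call of Slc17a1 was lost without heart replicate 1, 2 or 4 (adjusted p 0.167, 0.119 and 0.069). The calls of Slc22a17 and Slc26a2 were lost without heart replicate 1, 2 or 3 (adjusted p up to 0.223 and 0.234), and that of Slc25a33 without any heart replicate (between 0.0538 and 0.209). With a replicate block, Slc22a17 (0.11), Slc26a2 (0.102) and Slc25a33 (0.0896) lost their calls as well. Brain and heart, which share their control pool, differed in 0 of 142 carriers in limma, beside 0.0% of all 12688 genes, with 10 at an unadjusted p under 0.05, or 7.04% beside 8.94% of all genes. Slc7a1 (-0.63), Slc25a12 (-0.66), Slc6a2 (-1.22), Slc17a3 (0.49) and Slc16a8 (0.39) had the smallest p-values, each with adjusted p = 0.558.

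**Figure D4:**
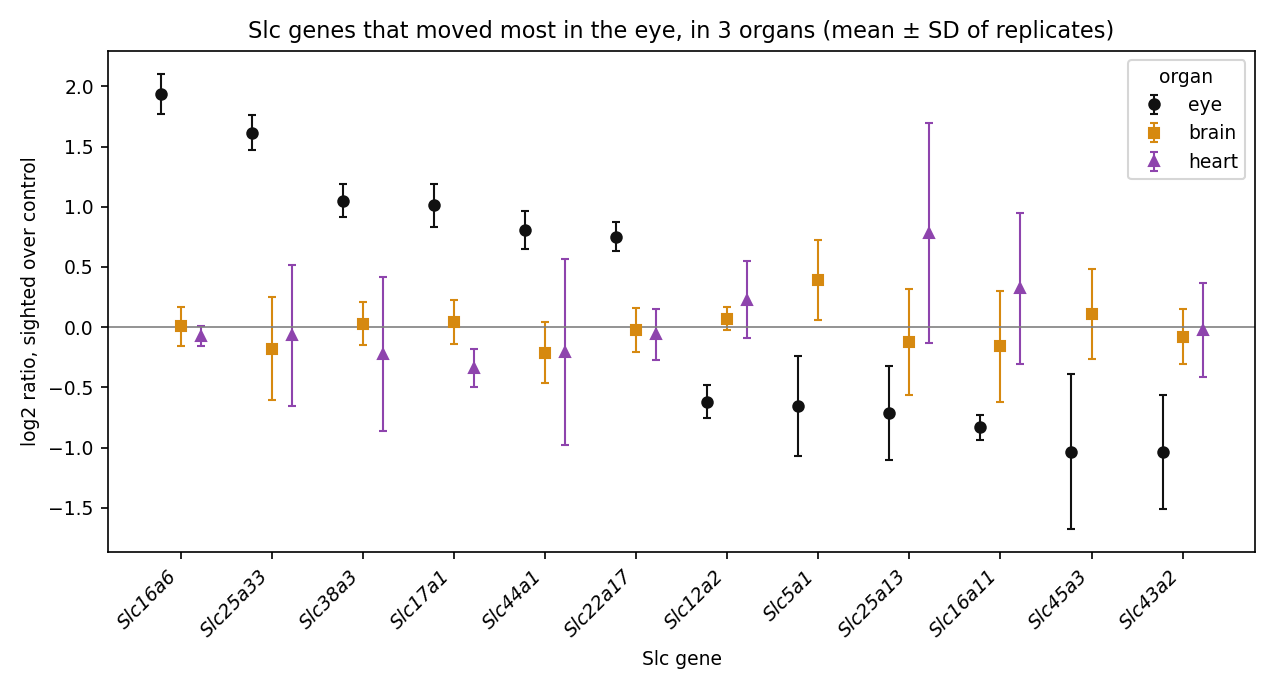
Mean log2 ratio ± SD over replicates of sighted over control RNA in eye (circles), brain (squares) and heart (triangles) for 12 carriers of large rise or fall in eye; a gene without a triangle was not tested in heart. The eye values of Slc16a6 and Slc25a33 stand at 1.94 and 1.62 while their brain and heart values lie between -0.18 and 0.01.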

How the data were processed

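The deposited values are log2 ratios, likely of Cy5 over Cy3, one per probe and array, in a table of all 32 arrays made by the authors. The scanner, and any background correction or normalization, were not given in the sources used here. Per the labels' protocols, cDNA of total RNA carried Cy3 or Cy5 by indirect labelling. Array medians lay between -0.055 and 0.539 in eye, 0.002 and 0.105 in brain and 0.042 and 0.217 in heart, which shows that centring was not uniform. For brain array 3 the labels name Cy5 on both channels, and the sighted RNA was taken as Cy5; for brain array 5 the source is given as sighted with no organ.

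From these values, 4170 entries at an array's ceiling (above 15) were set to missing, and the sign was turned where sighted RNA carried Cy3. For each probe, a replicate was the mean of consecutive arrays with exchanged dyes, if both had a value; probes of a gene were then averaged, and a gene could miss 1 replicate. The pairs were inferred from array numbers alone. All genes of an organ were fitted with limma 3.58.1 in R 4.3.3, mean against 0, two-sided, with Benjamini-Hochberg adjustment over all genes and a threshold of 0.05. Differences between organs used each organ's moderated spread with Satterthwaite degrees of freedom and were adjusted in the same way. The fits were tested on simulated data, where the test of differences called more unchanged genes than its threshold allows. Arrays give no read depth, so the number of replicates limits the precision. No 2 arrays held the same values.

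Gene names came from the platform annotation, and promoters from RefSeq (GRCm38.p6). The text names the 12 largest rises and 12 largest falls among called eye genes with 1 sign in every replicate. It also names the smallest p of each class, the 5 smallest p-values of every other comparison and tested genes of the retina list. A further rule named genes with probes past 0.5 in opposite directions, which Slc25a46 met in heart. The remaining called genes of each class, and the eye genes given by single probe, were chosen after their values were seen. The carriers, classes and gene lists were chosen with earlier results of these data known. Alternatives were every array on its own, the pair as a random block, centred arrays, ceiling values kept, every replicate required, single probes, robust and trended moderation, each dye orientation alone, a shared spread, a replicate block and leaving out replicates.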

Additional observations from a re-analysis of the deposited data

Results flagged for a closer look

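In groups of 4 to 10 replicates, 2 carriers had a replicate far from the rest by Dixon's criterion, which chance meets in about 1 of 20 groups, with 46 groups examined. Slc11a1 had a heart replicate at 2.49, above the other 3, and Slc16a8 had an eye replicate at -0.41, below the other 5. The heart replicate includes heart array 7, which lacked 61.6% of its values.

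The other carriers set apart differed between organs by a test of the difference itself. For eye against brain the log2 ratio in eye was lower for Slc45a3 (-1.14), Slc5a1 (-1.05), Slc43a2 (-0.96), Slc28a2 (-0.77), Slc12a2 (-0.69), Slc16a11 (-0.67), Slc44a2 (-0.64), Slc39a4 (-0.58), Slc13a3 (-0.48), Slc22a5 (-0.39), Slc49a4 (-0.39) and Slc27a2 (-0.30). It was higher for Slc24a3 (0.31), Slc35a5 (0.58), Slc22a6 (0.75), Slc22a17 (0.77), Slc26a2 (0.81), Slc25a25 (0.84), Slc38a9 (0.89), Slc17a1 (0.97), Slc36a4 (0.98), Slc44a1 (1.02), Slc38a3 (1.02), Slc25a33 (1.80) and Slc16a6 (1.93). Several of the eye against brain calls were lost with 1 replicate left out: Slc27a2 in 9 such fits (adjusted p up to 0.103), Slc35a5 in 6 (up to 0.0898), Slc16a11 in 5 (up to 0.0613), Slc28a2 in 4 (up to 0.0558) and Slc13a3 in 3 (up to 0.0544). For eye against heart it was lower for Slc43a2 (-1.01) and higher for Slc22a17 (0.81), Slc26a2 (1.04), Slc17a1 (1.35), Slc25a33 (1.69) and Slc16a6 (2.01), and of these Slc16a6 alone kept its call without each replicate in turn.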

How the results depend on the processing

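Of 1009 alternative values for 62 named results, 911 kept direction and call, 76 lost their call, 2 gained one and 20 turned in sign; the cause was not tested. In eye, 57 carriers (25 higher, 32 lower) became 69 (26 higher, 43 lower) with arrays centred on their median, 13 of them new calls. They became 36 (18 lower) with every array on its own. Without replicates 1 and 2 they became 35 (13 lower), and without replicates 1 and 5 they became 29 (16 higher, 13 lower), both with fewer replicates. With sighted RNA in Cy5 only 66 were higher and 9 lower, and in Cy3 only 10 and 49. The counts in brain were then 6 and 17, and the shares of all genes in these settings are not given here. Leaving out 1 replicate gave 44 to 60, and 41 of the 57 (21 higher, 20 lower) stayed called in each fit. For eye against brain, single probes gave 26 higher in place of 17. For eye against heart, a shared spread gave 19 (13 higher, 6 lower) in place of 6, the replicate block 2 higher and 2 lower, every replicate required 2 lower, single probes 10 (9 higher), and leave-one-out fits 1 to 8 (1 to 7 higher, 0 to 2 lower). Deviations of equally numbered replicates did not go together across organs (own number best in 1 of 14, correlations between -0.050 and 0.033). As these deviations may be technical, this cannot show whether equal numbers came from the same animal. Under the replicate block 28 carriers differed between eye and brain in place of 36. Turned in sign were, in Cy3 only, Slc22a6 (-0.055), Slc24a3 (-0.014) and Slc16a8 (-0.16), and in Cy5 only, Slc7a5 (0.15), Slc27a2 (0.012), Slc9a9 (0.13) and Slc6a6 (0.44). Single probes turned Slc22a17 (-0.026), Slc49a4 (0.10), Slc24a3 (-0.30) and, in heart, Slc25a46 (-0.50). Leave-one-out values crossed 0 for Slc6a6 in eye (-0.27 to 0.090), Slc25a46 in heart (-0.21 to 0.16) and Slc16a8 in eye (-0.023 to 0.093), and Slc16a8 also read -0.025 centred, -0.046 without replicates 1 and 2 and -0.027 without 1 and 5.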
